A study of Rattus norvegicus with 12 samples.

Results

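The nuclear genes of oxidative phosphorylation were examined in kidneys of 2 rat models of renal fibrosis. The genes were chosen by name: entries whose symbol starts with Nduf, Uqcr, Atp5 or Cox4 to Cox8, together with Sdha, Sdhb, Sdhc, Sdhd and Cyc1, that reached an FPKM of at least 0.5 in 3 or more of the 6 samples of a table. FPKM is the number of fragments assigned to a gene, divided by the length of its transcript and by the sequencing depth of the sample. This rule kept 90 genes of the 27723 gene symbols in the series, and they were the same 90 genes in both tables. They filled 94 of the 96 entries matched by name in the adenine table and 93 of the 99 matched in the UUO table, because Cox6b1, Ndufa10l1, Ndufv3 and Uqcrb are listed more than once. The rule used no difference between groups.

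Wild-type male SD rats bought at 8 weeks of age gave 12 kidney samples, 3 in each of 4 groups. Rats of the adenine model received a daily gavage of adenine (220 mg/kg) over 3 weeks, and the control group received normal saline instead. In the UUO model (unilateral ureteral obstruction), the left ureter was ligated and the kidneys were taken 2 weeks later, and the ureter of the sham group was not ligated. The adenine model was compared with control and the UUO model with sham, each within its own table, to ask which genes change in fibrotic kidneys. The samples of a group came from different rats, so the spread below is between rats.

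Oxidative phosphorylation makes most of the ATP of the renal tubule. Complexes I and II pass electrons from NADH and succinate to ubiquinone, complex III passes them to cytochrome c, complex IV passes them to oxygen, and complex V, the ATP synthase, uses the proton gradient that complexes I, III and IV build. All 5 complexes but complex II also hold subunits encoded in mitochondrial DNA, so their assembly draws on both genomes. The proximal tubule and the thick ascending limb, which drive much of the kidney's ion transport, are rich in mitochondria.

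Reference sequence upstream of the genes is shown first, because most members moved in one direction, as described below. RefSeq promoter windows of the GRCr8 build (250 bases before to 50 bases after the gene start) were found for 78 of the 90 genes, 1 of them by a synonym, and 4 motifs tied to mitochondrial genes were searched on both strands. GCGCATGCGC, the palindromic site of NRF1, was in 6 of the 78 windows (7.69%) and in 1.14% of 19005 windows of protein-coding genes. CCGGAAG, a site of ETS factors such as GABP, was in 22 (28.2%, against 11.2%). AAGATGGC, a site of YY1, was in 16 (20.5%, against 3.92%). TCAAGGTCA, a site of the estrogen-related receptors, was in 2 (2.56%, against 0.353%). At least one of the first 3 was in 36 of the 78 windows (46.2%, against 15.2%). The NRF1 and ETS motifs hold the letters CG, and the 78 windows were richer in CG than all windows. Their median ratio of observed to expected CG was 0.79, against 0.55, and its part in these shares was not tested. No 2 different motifs shared bases in the windows of these genes. These are matches of letters and not shown to be bound. The 100 bases before the start are printed 5′ to 3′ for 1 gene of each complex with a match, for the 2 subunit c genes that fell unequally, and for Cox6a2, which rose. Capitals mark every motif that lies wholly inside the 100 bases, in either direction.
Ndufa11 (chr9:1637514-1637613, plus strand): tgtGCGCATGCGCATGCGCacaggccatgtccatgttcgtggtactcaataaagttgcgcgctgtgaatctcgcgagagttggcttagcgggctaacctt
Sdhd (chr8:59850642-59850741, minus strand): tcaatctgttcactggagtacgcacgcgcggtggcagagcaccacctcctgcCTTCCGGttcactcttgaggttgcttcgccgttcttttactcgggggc
Uqcrc2 (chr1:184599140-184599239, plus strand): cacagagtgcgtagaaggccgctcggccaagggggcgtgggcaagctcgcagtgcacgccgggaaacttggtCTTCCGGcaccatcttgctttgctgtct
Cox8a (chr1:213833624-213833723, minus strand): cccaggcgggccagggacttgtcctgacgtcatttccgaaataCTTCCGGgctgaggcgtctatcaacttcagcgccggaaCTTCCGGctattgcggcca
Atp5me (chr14:1464760-1464859, plus strand): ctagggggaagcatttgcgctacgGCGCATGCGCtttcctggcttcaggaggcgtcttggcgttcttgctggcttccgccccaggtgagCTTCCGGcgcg
Atp5mc2 (chr7:135678219-135678318, minus strand): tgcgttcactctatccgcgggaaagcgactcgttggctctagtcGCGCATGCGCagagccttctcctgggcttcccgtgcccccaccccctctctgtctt
Atp5mc3 (chr3:79220665-79220764, minus strand): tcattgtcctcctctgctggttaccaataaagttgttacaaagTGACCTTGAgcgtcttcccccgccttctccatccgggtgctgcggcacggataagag
Cox6a2 (chr1:192219717-192219816, minus strand): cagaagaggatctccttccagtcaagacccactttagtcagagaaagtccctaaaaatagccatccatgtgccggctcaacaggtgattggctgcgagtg
Within these 100 bases, Ndufa11 carries 2 overlapping NRF1 matches, and Sdhd and Uqcrc2 carry an ETS match each. Cox8a carries 2 ETS matches there, and Atp5me an NRF1 and an ETS match. Atp5mc2 has an NRF1 match and Atp5mc3 a match to the estrogen-related receptor motif. The stretch of Cox6a2 holds none of the 4. Not wholly inside the stretches, the windows of Sdhd and Uqcrc2 hold a further ETS match each. Those of Cox8a and Atp5me hold a YY1 match, and that of Sdhd the other match to the estrogen-related receptor motif. Among 63 subunits with a window, those with an ETS match (20) and those without (43) had median log2 fold changes of -1.004 and -1.15 for adenine against control and of -0.997 and -1.02 for UUO against sham, given as a description. With and without an NRF1 match (4 and 59) they were -0.96 and -1.12 for adenine and -1.06 and -1.01 for UUO. For YY1 (14 and 49) they were -1.13 and -1.11, and -1.04 and -1.005. For the estrogen-related receptor motif (2 and 61) they were -1.57 and -1.11, and -1.32 and -1.01.

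The deposited tables hold FPKM and no read counts, which leaves the depth of each value unknown. Between rats of one group, log2 values of all tested entries correlated at 0.952 to 0.971 (Pearson's r, across genes, which are not independent). The FPKM of a sample summed to 468389 to 582725 in the adenine table and to 528811 to 630244 in the UUO table. Transcripts of the 13 mitochondrially encoded subunits took 27.7 to 32.2% of it in control and 12.9 to 14.9% in adenine rats, and 28.4 to 33.2% in sham and 8.82 to 10.5% in UUO rats. Over all entries tested, the median change on the log2 scale was 0.30 for adenine against control and 0.62 for UUO against sham, and median-of-ratios scaling brought it to 0.01 and 0.03.

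Nuclear OXPHOS genes were broadly downregulated in the adenine model. Of the 94 entries, 80 fell, 4 rose and 10 did not pass the test (limma on log2(FPKM + 0.1), adjusted p under 0.05). Over all 15029 entries tested, 19.9% fell and 39.6% rose. The median log2 fold change of the members was -1.06, against 0.30 over all entries. Summed over the members, FPKM was 21966 ± 1482 in control and 10455 ± 831 in adenine rats (mean ± SD, n = 3), which is 47.6% of control. Every adenine rat lay below every control rat for 81 entries (23.0% of all entries did so), and above for 4 (45.0% of all).

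The UUO model gave a like picture against its own sham group. Of 93 entries, 81 fell, 4 rose and 8 did not pass the test, while 14.4% of all 15043 entries tested fell and 56.1% rose. The median log2 fold change was -0.93, against 0.62 over all entries. Summed FPKM went from 21930 ± 1736 in sham to 10901 ± 739 in UUO rats (n = 3), or 49.7% of sham. The UUO rats lay below all sham rats for 81 entries (15.7% of all entries) and above for 5 (60.0%). Median-of-ratios scaling, which sets each sample by the median ratio of its entries to their mean over samples, left all 80 and all 81 falls called and raised their number to 82 in the adenine model (28.4% of all entries fell there) and 85 in the UUO model (28.0%). There were then 4 rises among adenine and 3 among UUO rats (29.1% and 28.0% of all entries rose). In a bulk sample, fewer cells of a type and less RNA per cell cannot be told apart.

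Markers of the kidney's cell types moved in the same rats. The summed FPKM of 8 proximal tubule markers was 17.4% of control in adenine and 17.2% of sham in UUO rats, with sums of 1538 to 2324 in control, 176 to 509.6 in adenine, 2175 to 2523 in sham and 289 to 553 in UUO rats. Of these 8 markers, 5 fell in each model, and Slc5a12 rose in the adenine model. The 3 thick ascending limb markers all fell in both models, to 12.8% and 6.66% in sum (sums of 1448 to 1763 in control, 139.8 to 318 in adenine, 2059 to 2675 in sham and 97.4 to 236 in UUO rats), as did the 3 intercalated cell markers (14.7% and 30.2%). Principal cell markers fell for 2 of 3 in the adenine and 3 of 3 in the UUO model, distal convoluted tubule markers for 0 of 2 and 2 of 2 tested, and endothelial markers for 1 of 2 and 0 of 2. Leukocyte markers rose for 5 of 5 tested in each model (sums 52.0-fold and 6.90-fold higher) and fibroblast markers for 4 of 4 (8.85-fold and 26.2-fold). The part of these shifts in the OXPHOS falls was not tested.

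**Figure D1:**
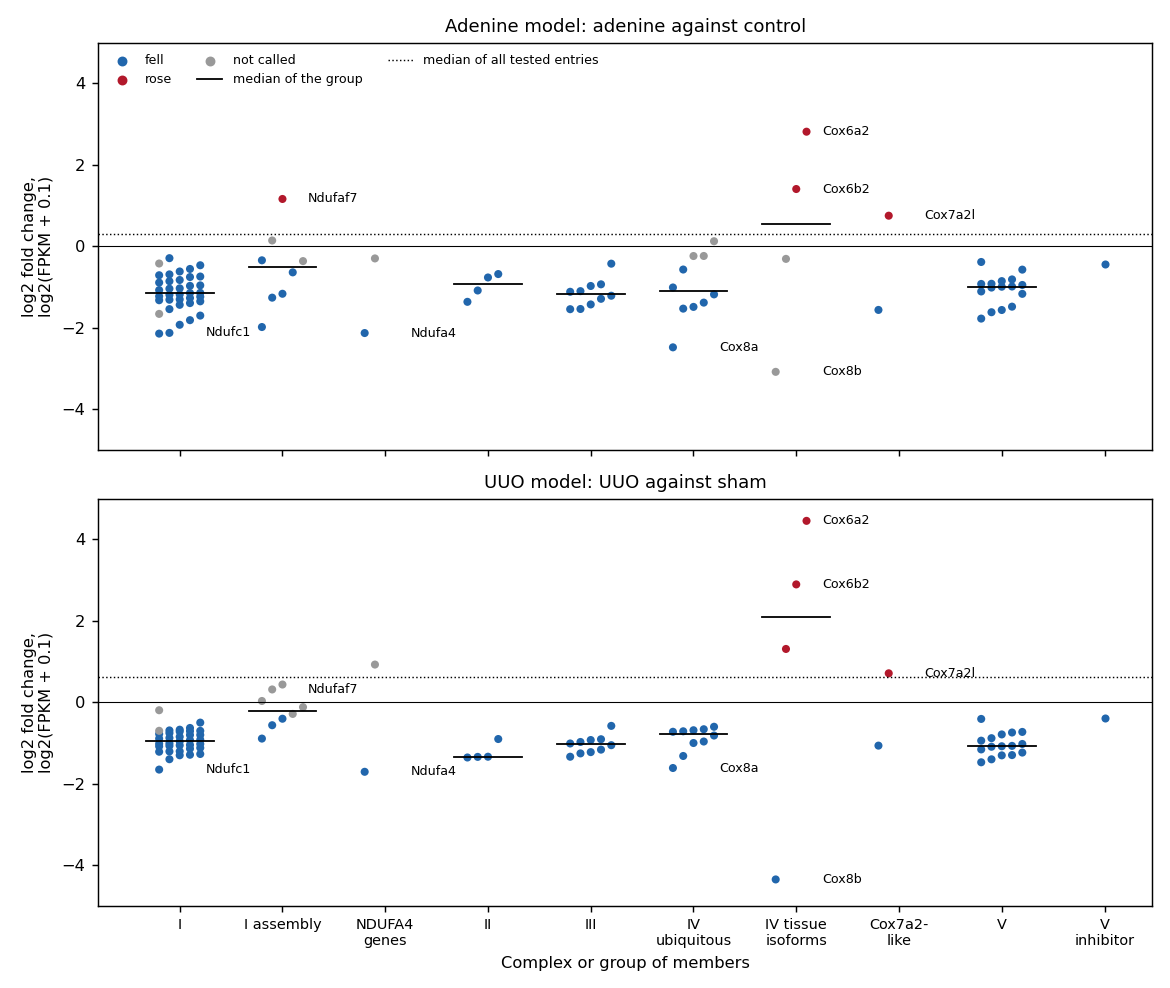
log2 fold change (vertical axis, log2(FPKM + 0.1) scale) of every tested member by complex or group, with adenine against control above and UUO against sham below; points are genes or entries, blue fell, red rose, grey did not pass the test, solid bars are group medians and the dotted line is the median of all tested entries. Nearly all subunits of complexes I to V lie below 0 in both models, and Cox6a2, Cox6b2 and Cox7a2l lie above it.

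Complex I, the NADH dehydrogenase, fell in 35 of 37 entries in adenine rats and in 34 of 36 in UUO rats, with median log2 fold changes of -1.15 and -0.95. Its summed FPKM was 5313 ± 509 in control and 2487 ± 161 in adenine rats (46.8%), and 5176 ± 276 in sham and 2664 ± 223 in UUO rats (51.5%). The largest fall of a main entry was that of the accessory subunit Ndufc1. Ndufc1 had FPKM of 137, 166 and 157 in the control rats and 33.7, 37.3 and 33.6 in the adenine rats, 4.40-fold lower (log2 fold change -2.13, SE 0.11, adjusted p = 3.39e-05). In the other table it was 66.4, 73.6 and 64.1 in sham and 17.2, 28.1 and 20.4 in UUO rats, 3.10-fold lower (log2 fold change -1.66, SE 0.18, adjusted p = 0.000238). The ranges of the groups did not overlap in either table.

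Core subunits of complex I, which carry the flavin, the iron-sulfur clusters and the ubiquinone site, fell as well. Ndufs1, the largest iron-sulfur subunit, was 102, 74.9 and 81.4 FPKM in control and 48.0, 59.2 and 49.4 in adenine rats (log2 fold change -0.71, adjusted p = 0.00614), and 134, 138 and 135 in sham and 46.2, 54.2 and 53.6 in UUO rats (log2 fold change -1.40, adjusted p = 3.19e-05). Ndufv1, which binds NADH, changed by -1.08 and -1.29 on the log2 scale. All 4 of these falls passed the test. The 2 most abundant complex I genes in control, Ndufb8 and Ndufb9, stood at 297 ± 60.3 and 271 ± 47.5 FPKM there and at 119 ± 15.8 and 115 ± 10.4 in adenine rats (n = 3). In the UUO table they went from 260.2 ± 29.0 and 277 ± 31.4 to 112 ± 6.37 and 119 ± 9.57. The called member nearest to 0 in the adenine model was Ndufa8 (-0.29 on the log2 scale, adjusted p = 0.0376), which fell by 0.68 in UUO rats. Leaving out 1 rat in turn, the falls of Ndufa8, Ndufa13, Ndufaf5, Uqcrh and Atp5md in the adenine model were each lost in at least 1 fit, and those of the other 75 entries were kept in all.

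Some complex I entries could not be read. Ndufa1 was at 145, 126 and 103 FPKM in control and 5.03, 126 and 91.9 in adenine rats, and is listed at 71.9, 0.0001 and 143 in sham and 0.0001, 81.8 and 83.0 in UUO rats. A value of 0.0001 stands in the UUO table where the adenine table has 0, and single samples at that value beside others near 80 leave Ndufa1 uninterpretable. Ndufv3 is listed as a main entry, which fell by 0.759 and 0.808 on the log2 scale, and a minor entry, which fell from 4.84 ± 1.08 to 1.02 ± 0.277 FPKM in the adenine model (n = 3, log2 fold change -2.15, adjusted p = 0.000608) and overlapped between sham and UUO rats. The minor entry of Ndufa10l1 was at 1.35, 13.8 and 0.492 in control rats and below the minimum in the UUO table. How reads were shared between entries of one symbol is not given in the sources used here.

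Complex II, succinate dehydrogenase, is encoded wholly in the nucleus, and all 4 genes fell in both models. Summed FPKM was 50.5% of control in adenine and 42.2% of sham in UUO rats, and the median log2 fold changes were -0.93 and -1.34. Sdha, the flavoprotein that oxidises succinate, was 224, 177 and 181 FPKM in control and 117, 123 and 101 in adenine rats, 1.71-fold lower (adjusted p = 0.003), and 261, 324 and 286 in sham and 104, 118 and 116 in UUO rats, 2.57-fold lower (adjusted p = 7.02e-05). Sdhb, the iron-sulfur subunit, changed least in the UUO model, by -0.91 against -0.69 in the adenine model (log2). The membrane anchors Sdhc and Sdhd changed by -1.09 and -1.37 in adenine rats and by -1.34 and -1.35 in UUO rats. Sdhd was 251, 266 and 245 FPKM in control, 101, 97.3 and 97.0 in adenine, 229, 267 and 227 in sham and 96.7, 92.4 and 94.3 in UUO rats.

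All 10 complex III entries fell in both models (cytochrome bc1 complex; median log2 fold changes -1.17 and -1.04). Summed FPKM was 2121 ± 57.1 in control and 1025 ± 83.4 in adenine rats (48.3%), and 2131 ± 159 in sham and 1061 ± 59.8 in UUO rats (49.8%). Uqcrfs1, the Rieske iron-sulfur protein, was 289.8, 276 and 263 FPKM in control, 138, 127 and 117 in adenine, 298, 325 and 270.3 in sham and 113, 115 and 123 in UUO rats (log2 fold changes -1.12 and -1.34, adjusted p = 0.000235 and 4.85e-05). Cyc1, cytochrome c1, changed by -0.98 and -1.06, and the core protein Uqcrc1 by -0.94 and -1.02 (log2). Uqcrq changed most among the adenine rats (-1.55) and Uqcrh, the hinge protein beside cytochrome c1, least in both models (-0.43 and -0.58). Uqcrh and Uqcr11 were the most abundant genes of the complex in control, at 348 ± 15.8 and 327 ± 29.1 FPKM, and Uqcr11 changed by -1.43 and -1.26. The 2 Uqcrb entries fell by 0.91 to 1.54 on the log2 scale.

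Complex IV, cytochrome c oxidase, had the widest spread among its subunits in the adenine model (SD of the log2 fold change 0.78 over 10 entries, against 0.31 to 0.45 in the other complexes, Ndufa1 left out). There 7 of 10 ubiquitous entries fell, while in the UUO model 10 of 10 did, with SD 0.33. Cox8a, a small subunit, was the member with the largest called fall among the ubiquitous subunits. Its FPKM was 774, 943 and 806 in control and 143, 169.6 and 137 in adenine rats, 5.60-fold lower (log2 fold change -2.49, SE 0.14, adjusted p = 4.37e-05). In sham rats it was 422, 480.4 and 408 and in UUO rats 136, 164 and 127, 3.06-fold lower (log2 fold change -1.62, adjusted p = 6.44e-05). The adenine and UUO rats thus had similar listed FPKM of Cox8a, and the control rats had more than the sham rats. The 2 tables were normalised separately, and no test was made across them.

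Cox4i1, the regulatory subunit 4, was 649, 809.7 and 693 FPKM in control and 686, 595 and 540.2 in adenine rats, which overlapped (log2 fold change -0.24, adjusted p = 0.22), and 909, 1015 and 855 in sham and 585, 638 and 529 in UUO rats, which did not (log2 fold change -0.67, adjusted p = 0.00235). The larger entry of Cox6b1, a subunit facing the intermembrane space, was 285, 331 and 286 in control and 345, 334 and 302 in adenine rats (adjusted p = 0.409), and 352, 362 and 327 in sham and 205, 237 and 193 in UUO rats (adjusted p = 0.000918). Median-of-ratios scaling raised the falls of complex IV in the adenine model from 7 to 9 of 10, the gained ones being Cox4i1 (-0.53, adjusted p = 0.0387) and the smaller entry of Cox6b1. Cox5a, which sits beside subunit 4, changed by -1.18 and -1.005, Cox6a1 by -1.02 and -0.82, and Cox7b by -1.53 and -1.32 (log2), all of them called.

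Ndufa4 was first assigned to complex I and is now counted with complex IV. It fell from 606, 731 and 571 FPKM in control to 145, 163 and 126 in adenine rats, 4.39-fold lower (log2 fold change -2.13, SE 0.15, adjusted p = 8.16e-05), and from 538, 705 and 539 in sham to 163, 193 and 185 in UUO rats, 3.30-fold lower (adjusted p = 7.38e-05). Its relative Ndufa4l2, known as a target of hypoxia-inducible factor, was 2.70, 3.30 and 3.69 in control and 5.03, 1.49 and 2.27 in adenine rats (adjusted p = 0.56), and 3.22, 3.35 and 2.98 in sham and 9.56, 7.37 and 3.23 in UUO rats (adjusted p = 0.0634). Ndufa4l2 overlapped between the groups of both tables, yet as a percentage of Ndufa4 it went from 0.515% ± 0.114 to 2.06% ± 1.30 in the adenine table and from 0.542% ± 0.0623 to 3.82% ± 2.06 in the UUO table (SD, n = 3), without overlap of the rats.

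All 16 entries of complex V, the ATP synthase, fell in both models, with median log2 fold changes of -0.99 and -1.08. Its summed FPKM went from 7297 ± 391 to 3369 ± 397 in the adenine table (46.2%) and from 7771 ± 714 to 3594 ± 255 in the UUO table (46.2%). Atp5f1b, the catalytic beta subunit, was the most abundant member throughout. It was 1612, 1599 and 1642 FPKM in control and 753, 811 and 606 in adenine rats (2.24-fold lower, adjusted p = 0.00107), and 1863, 2041 and 1695 in sham and 707, 812 and 739 in UUO rats (2.48-fold lower, adjusted p = 0.000138). The alpha subunit Atp5f1a changed by -1.02 and -1.48, the epsilon subunit Atp5f1e by -1.62 and -1.10, and Atp5md, a small membrane subunit, by -0.39 and -1.08 (log2). Atp5if1, the inhibitor protein of the synthase, also fell (-0.43 and -0.39).

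Subunit c, the ring that protons turn, comes from 3 genes whose mature protein is the same. Atp5mc3 was 665, 779.7 and 759 FPKM in control, 212, 250.0 and 184 in adenine, 553, 622 and 516 in sham and 219, 247 and 219 in UUO rats (log2 fold changes -1.78 and -1.30). Atp5mc1 followed it (-1.49 and -1.41), and Atp5mc2 fell least (-0.82 and -0.41). As a percentage of Atp5mc3, Atp5mc2 went from 53.9% ± 5.02 to 105% ± 7.24 in the adenine table and from 60.9% ± 3.89 to 113% ± 8.08 in the UUO table (SD, n = 3), so the 2 genes were about level in both models. These ratios are set within a sample and do not depend on how samples were scaled. Reads shared between near-identical transcripts of these genes could be split by the counting.

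**Figure D2:**
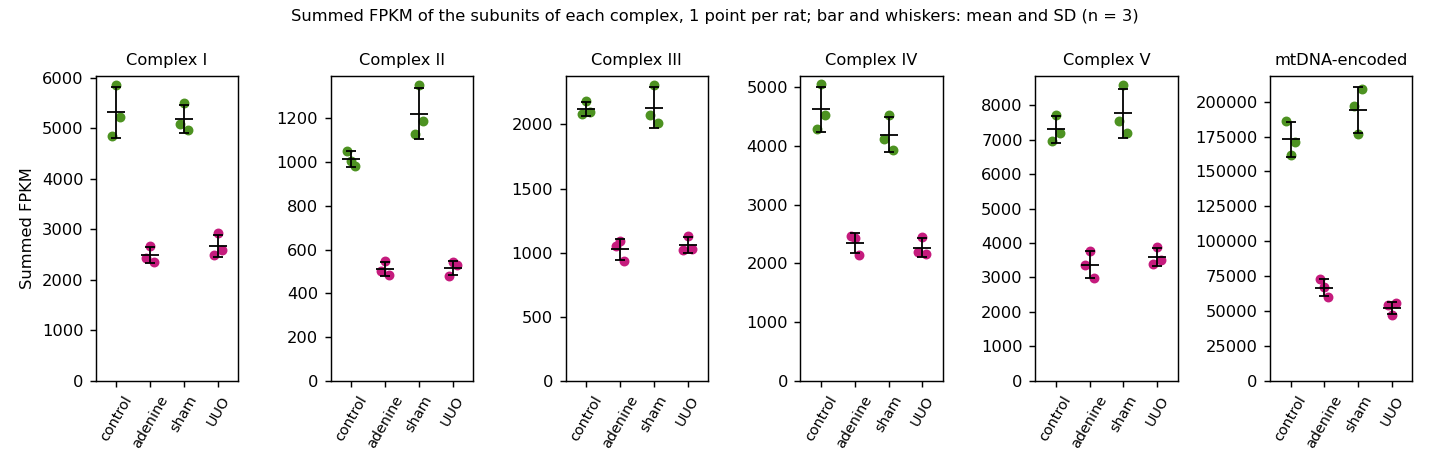
Summed FPKM (vertical axes, from 0, on a different scale in each panel) of the subunits of each complex and of the 13 mitochondrially encoded subunits, 1 point per rat, with the mean and SD of 3 rats. In each of the 6 panels the adenine rats lie below all control rats and the UUO rats below all sham rats.

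The 13 subunits encoded in mitochondrial DNA, which are no members by name, fell as well. In adenine rats 12 of 13 fell, with a median log2 fold change of -1.58 and Mt-co1, the catalytic subunit of complex IV, at -1.05 (adjusted p = 0.0583), and all 13 fell in UUO rats, with a median of -2.04. Their summed FPKM was 38.5% of control and 26.9% of sham. Divided by the summed FPKM of the nuclear members of the same rat, it was 7.92 ± 1.06 in control and 6.38 ± 0.470 in adenine rats, which overlapped, and 8.93 ± 1.40 in sham and 4.82 ± 0.689 in UUO rats, which did not (SD, n = 3). With 3 rats against 3, an exact permutation test cannot go below p = 0.10, so these ratios are given without one. The lowest members of the list were Mt-nd6 in adenine rats (-2.16) and Mt-nd4l in UUO rats (-2.31), both subunits of complex I.

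Assembly factors, which help build a complex without staying in it, were mixed. Of the 8 complex I factors named Ndufaf, 5 fell and 1 rose in the adenine model, and 3 fell in the UUO model, where median-of-ratios scaling gave 6 falls. Their summed FPKM was 57.9% of control and 80.8% of sham. Ndufaf8 had the largest fall in both models, from 41.1, 57.0 and 43.4 FPKM in control to 13.2, 11.1 and 10.9 in adenine rats (log2 fold change -1.99, adjusted p = 0.000113) and from 27.6, 32.4 and 31.2 in sham to 17.3, 17.7 and 14.0 in UUO rats (log2 fold change -0.90, adjusted p = 0.000679). Ndufaf4 passed the test in adenine and not in UUO rats, being 11.4, 12.3 and 8.98 in control, 5.03, 4.35 and 4.89 in adenine, 6.39, 5.44 and 7.19 in sham and 5.33, 4.96 and 7.30 in UUO rats (adjusted p = 0.000925 and 0.58), but after median-of-ratios scaling it was called in both (-1.46 and -0.72, adjusted p = 0.000409 and 0.0101). Ndufaf7, a methyltransferase, rose in the adenine model from 6.31, 5.93 and 5.48 to 14.8, 11.3 and 14.1 (log2 fold change 1.16, adjusted p = 0.000676). In sham and UUO rats Ndufaf7 was 5.46, 7.09 and 7.17 and 7.88, 7.81 and 8.70, a difference that did not pass the test (adjusted p = 0.0929) and whose sign turned under median-of-ratios scaling (-0.28).

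A few members went against the rest, and most of them are isoforms known from other tissues or genes named after Cox7a2. Cox7a2l, a factor that helps join complexes III and IV into supercomplexes, was 66.6, 80.2 and 69.1 FPKM in control and 126, 119 and 117 in adenine rats, 1.68-fold higher (log2 fold change 0.75, SE 0.11, adjusted p = 0.00118). In sham rats it was 72.5, 89.4 and 76.4 and in UUO rats 133, 126 and 129, 1.63-fold higher (log2 fold change 0.71, adjusted p = 0.000709). After median-of-ratios scaling its rise was still called in the adenine model (0.46) and no longer in the UUO model (0.11, adjusted p = 0.452). No entry is named Cox7a2 in either table. Whether the entry named Cox7a2l2 took reads of Cox7a2 is not known, which limits the values of Cox7a2l2 that follow. The gene listed as Cox7a2l2 fell in both, from 449.6, 571 and 442 to 168, 172 and 151 and from 371, 459.8 and 360.4 to 179.6, 201 and 184. As a percentage of Cox7a2l2 in the same rat, Cox7a2l went from 14.8% ± 0.781 in control to 73.9% ± 4.19 in adenine rats and from 20.1% ± 0.987 in sham to 68.9% ± 5.93 in UUO rats (SD, n = 3).

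Cox6a2, the heart and skeletal muscle isoform of subunit 6a, rose in both models from values near 0. It was 0, 0.394 and 0.388 FPKM in control and 1.81, 1.52 and 2.59 in adenine rats (log2 fold change 2.81, SE 0.65, adjusted p = 0.00933), and 0.0001, 0.113 and 0.0001 in sham and 2.89, 1.74 and 3.98 in UUO rats (log2 fold change 4.45, SE 0.46, adjusted p = 0.000191). It passed the FPKM minimum only through the model groups, so that its p-values are descriptions too, and it was about 1% of Cox6a1 there (0.717% ± 0.257 and 1.04% ± 0.489). Of 8 muscle markers 1, Tnnt3, was high enough to be tested and rose in both models (1.54 and 1.81, the first not called after median-of-ratios scaling, adjusted p = 0.0666), while Ckm, muscle creatine kinase, was at most 0.468 FPKM in any rat.

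Cox6b2, an isoform best known from testis, was 1.30, 2.76 and 1.71 FPKM in control and 4.95, 5.66 and 4.55 in adenine rats (log2 fold change 1.40, adjusted p = 0.00495), and 1.31, 1.44 and 0.710 in sham and 9.93, 14.2 and 4.92 in UUO rats (log2 fold change 2.89, adjusted p = 0.000981). The UUO rats varied most among themselves and still lay above all sham rats. Cox4i2, the subunit 4 isoform known from lung and from low oxygen, was 2.27, 3.32 and 1.20 in control and 2.38, 1.36 and 1.42 in adenine rats, which overlapped (adjusted p = 0.528), and 2.27, 1.73 and 1.43 in sham and 5.15, 4.69 and 3.91 in UUO rats, which did not (log2 fold change 1.31, adjusted p = 0.00166). Even in UUO rats it was under 1% of Cox4i1 (0.784% ± 0.0830, against 0.196% ± 0.0470 in sham rats).

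Cox8b, the isoform of heart, muscle and brown fat in rodents, is listed at 1.79, 2.38 and 1.74 FPKM in sham rats and at 0.0001 in all 3 UUO rats, so no fold is given. It passed the FPKM minimum through the sham group alone, so that an entry tested at all had to differ, and its call (log2 fold change -4.36 with the 0.1 added, adjusted p = 4.43e-05) is a description. In the adenine table it was 7.69, 0.871 and 1.87 in control and 2.32, 0 and 0 in adenine rats and did not pass the test (adjusted p = 0.0946). Control rat 1 and adenine rat 1, where it was highest in each group, also had the highest levels of fat markers, whose part in Cox8b was not tested. Ucp1, the marker of brown fat, was 20.6, 0 and 0 FPKM in the control rats and 0.287, 0 and 0 in the adenine rats, and Plin1 was 10.9, 0.144 and 1.35 and 92.6, 0.0439 and 0.0656. Ucp1 is listed at 0.0001 in all sham and UUO rats. The summed FPKM of the 5 fat markers was 13.2, 20.1 and 11.7 in sham and 78.6, 14.9 and 16.5 in UUO rats, so UUO rat 1 stood apart in fat markers while its Cox8b was at 0.0001. Of the adipocyte markers tested, none of 3 passed in the adenine model, and 1 of 2, Cidea, rose in the UUO model.

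**Figure D3:**
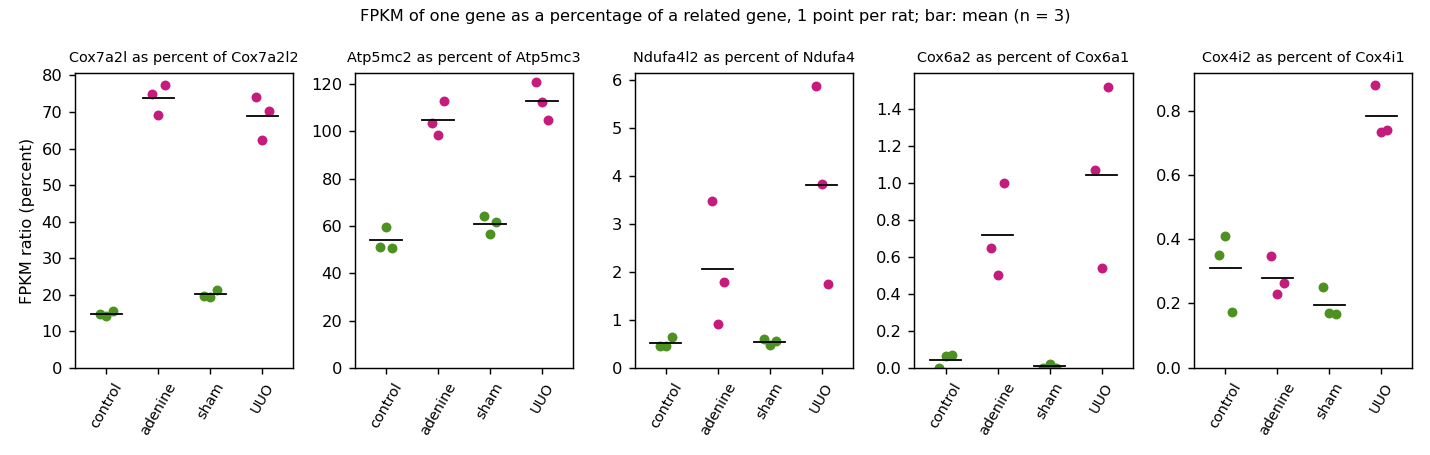
FPKM of one gene as a percentage of a related gene in the same rat (vertical axes, from 0, on a different scale in each panel), 1 point per rat and a bar at the mean of 3. Cox7a2l against Cox7a2l2 and Atp5mc2 against Atp5mc3 are higher in every adenine and UUO rat than in every control and sham rat, as are Ndufa4l2 against Ndufa4 and Cox6a2 against Cox6a1, and Cox4i2 against Cox4i1 is higher in every UUO rat and not in the adenine rats.

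The FPKM minimum decided a few cases. Just inside it lay Cox6a2 and, in the UUO table, Cox8b, both of which passed through a single group. Just outside lay Ndufs6, a complex I subunit, at 0.128, 0.584 and 0.372 in control, 0.319, 0.288 and 0.326 in adenine, 0.859, 0.423 and 0.278 in sham and 0.109, 0.169 and 0.0001 in UUO rats, and Cox7a1, the muscle isoform of subunit 7a, at 0.190, 0.227 and 0.620, 0.200, 0.249 and 0.0727, 0.485, 1.56 and 0.486 and 0.0001, 0.0001 and 0.0001 in the same order. The median of the mean FPKM over tested complex I entries was 153 in control and 142 in sham rats. Whether the entry named Ndufs6 took all reads of that gene is not known. Cox7b2, Cox8c and Cox6c-ps1 are listed at 0.0001 in all 6 samples of the UUO table. Without the entries that passed through a single group and without Ndufa1, an alternative chosen after seeing the data, 80 of 92 entries fell and 3 rose in the adenine model, and 80 of 90 fell and 3 rose in the UUO model.

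Few members reached the size that the study required of a DEG, a log2 fold change of 2 or more in either direction with an adjusted p under 0.05. There were 5 in the adenine model (Cox8a, Ndufa4, Ndufc1, the minor entry of Ndufv3, and Cox6a2, the last one upregulated), against 15.7% of all entries (5.03% downregulated and 10.7% upregulated). There were 3 in the UUO model (Cox6a2 and Cox6b2 upregulated, Cox8b downregulated), against 17.4% of all (4.21% downregulated and 13.2% upregulated). Of these 3, Cox6a2 and Cox8b had passed the FPKM minimum through the group where they were high, and 1 DEG remained without such entries. Without them the adenine model had 4. Median-of-ratios scaling gave 9 DEGs in each comparison, and the share of all entries that were DEGs under it is not given here. No subunit of complexes II, III or V was a DEG without it, and with it Atp5mc3 was one in adenine rats (-2.07) and Atp5f1a and Atp5mc1 were in UUO rats (-2.08 and -2.01). Turned back from the log2 scale, the median log2 fold change over all members stood for 47.9% of control in the adenine model and 52.4% of sham in the UUO model.

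The models were then compared directly, by the difference of their log2 fold changes, in the 86 members listed once in each table. Of these, 72 fell in both models, 3 rose in both (Cox6a2, Cox6b2 and Cox7a2l) and none was called in opposite directions. Cox6a2 passed the FPKM minimum only through the model groups, so its shared rise is a description. The rise of Cox7a2l in UUO rats was not called after median-of-ratios scaling. The difference passed the test for 20 of 86 members, while it did for 27.0% of the 13486 symbols tested in both models. Of the 20, 14 had the lower log2 fold change in the adenine comparison and 6 in the UUO comparison, which says nothing of the levels in adenine and UUO rats. Of all 3640 symbols that passed, 2932 had the lower log2 fold change in the adenine comparison and 708 in the UUO comparison. The tilt of the 20 was thus not particular to the members. The 14 held Ndufb2 (1.00, SE 0.15, adjusted p = 0.000703), Cox8a (0.87, SE 0.19, adjusted p = 0.00518), Cox7c (0.80) and Ndufs7 (0.76), each value being UUO minus adenine on the log2 scale. The 6 were Ndufaf7 (-0.85), Ndufaf1 (-0.71), Ndufs1 (-0.69, SE 0.17, adjusted p = 0.0116), Atp5md (-0.69), Sdha (-0.59, SE 0.17, adjusted p = 0.0233) and Ndufa8 (-0.38).

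Which members differed depended on scaling. With median-of-ratios scaling 19 members differed, 16 of them with the lower log2 fold change in the UUO and 3 in the adenine comparison, and 9 were shared with the 20. Over all 13486 symbols, 2520 differed under that scaling. The shared ones were Atp5md, Ndufa8, Ndufaf1, Ndufaf7, Ndufs1 and Sdha (lower fold change in UUO) and Ndufaf4, Ndufaf8 and Ndufb2 (lower fold change in adenine). Over the 86 members the changes in the models correlated with Pearson's r = 0.82 and Spearman's rho = 0.54, but over 68 subunits of complexes I to V without Ndufa1 these were 0.46 and 0.36, given as a description across genes measured in the same libraries. The 86 include Cox6a2 and, in the UUO table, Cox8b, which passed the FPKM minimum through a single group.

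**Figure D4:**
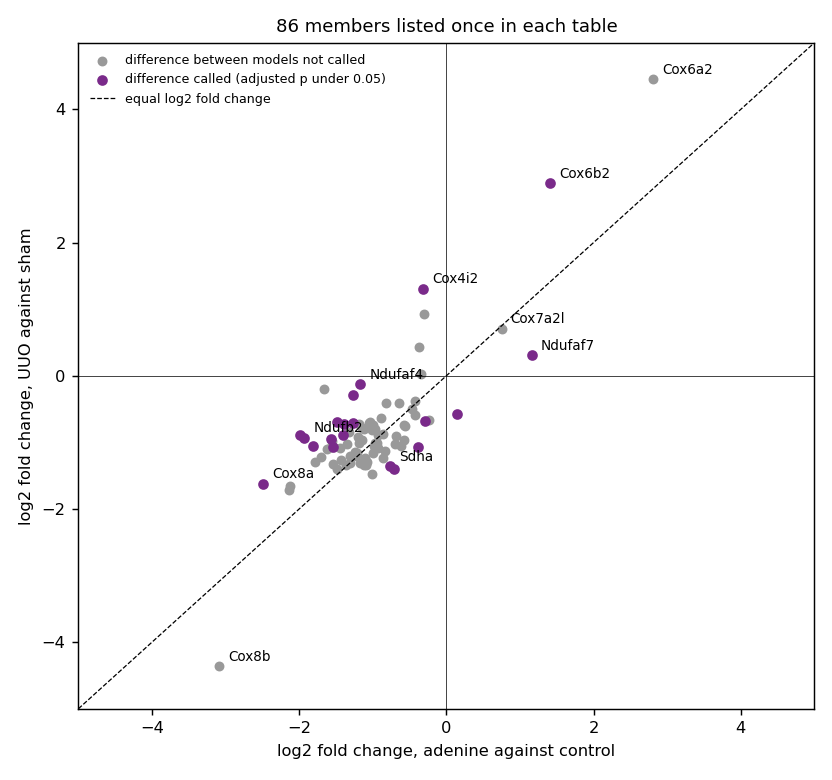
log2 fold change in the adenine model (horizontal axis) against that in the UUO model (vertical axis) for 86 members, with the dashed line at equal change and purple points where the difference passed the test. Most members lie in one cloud below 0 on both axes, Cox6a2 and Cox6b2 lie above 0 on both, and Cox8b lies lowest.

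The levels behind these differences are set side by side here, although the tables were normalised separately and no test was made across them. Among 68 subunits of complexes I to V (Ndufa1 left out), mean FPKM in UUO and adenine rats differed by a median of 1.08-fold, whereas sham and control rats differed by 1.21-fold, and the reference groups differed more for 55 of the 68. Over all 13486 symbols the order was the other way, 1.40-fold between the model groups and 1.26-fold between the reference groups. There the reference groups differed more for 5105 of the 13486. Sdha stood at 114 FPKM in adenine and 113 in UUO rats, but at 194 in control and 291 in sham rats. Ndufs1 stood at 52.2 and 51.4 against 86.1 and 136 in the same order, Cox8a at 150.1 and 143 against 841 and 437, and Ndufs7 at 28.4 and 29.1 against 101 and 60.7. For 16 of the 20 members that differed between the models, the reference groups stood further apart than the model groups. These 20 were picked by a test on the same 4 groups. The matching count among all 3640 symbols that passed that test is not given here.

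**Figure D5:**
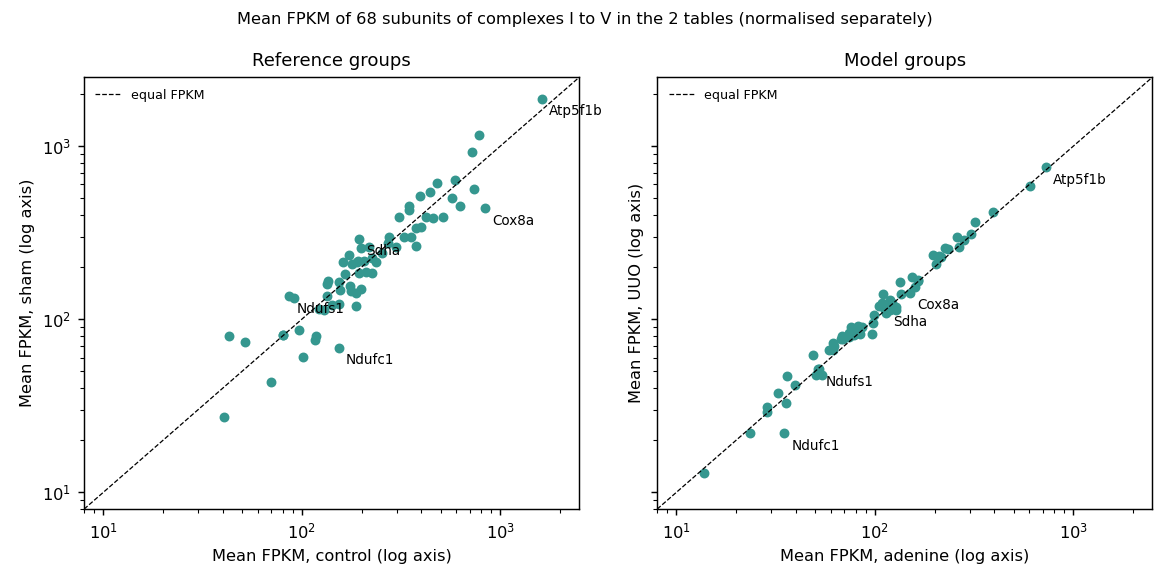
Mean FPKM (log axes) of 68 subunits of complexes I to V, with sham against control rats on the left and UUO against adenine rats on the right, 1 point per gene and the dashed line at equal FPKM. The points lie closer to the line for the model groups (median distance 1.08-fold) than for the reference groups (1.21-fold).

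Other genes of the pathway were described by lists. Of assembly factors of the 5 complexes beyond the Ndufaf genes, 19 of 41 tested fell and 0 rose in the adenine model, and 20 of 39 fell and 0 rose in the UUO model. After median-of-ratios scaling the falls of this list numbered 32 and 38. Sdhaf3, which helps mature the iron-sulfur subunit of complex II, fell most (-2.29 and -2.04). Cycs, cytochrome c, which carries electrons from complex III to complex IV, had the largest fall of its list in both models. It was 1158, 1419 and 998 FPKM in control, 89.3, 123 and 93.3 in adenine, 506, 427 and 372 in sham and 75.2, 64.1 and 85.7 in UUO rats (log2 fold changes -3.55 and -2.53, adjusted p = 3.54e-05 and 2.83e-05).

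In the list of cytochrome c and of the exchange of ATP, ADP and phosphate, 6 of 9 fell in the adenine and 5 of 9 in the UUO model, and 1 rose in each (6 and 8 falls after median-of-ratios scaling). The ADP/ATP carriers Slc25a4 and Slc25a5 changed by -0.91 and -1.23 in the adenine and by -0.40 and -1.42 in the UUO model, all called. Ucp2, a carrier of the uncoupling protein family that is abundant in immune cells, was the gene that rose, from 22.2, 23.9 and 18.0 to 152, 178 and 158 FPKM (2.93, adjusted p = 2.61e-05) and from 24.3, 28.2 and 26.0 to 189, 183 and 176 (2.80, adjusted p = 5.71e-06). The leukocyte markers given above also rose in both models, with sums 52.0-fold and 6.90-fold higher, and their part in the rise of Ucp2 was not tested.

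Of tricarboxylic acid cycle genes other than complex II, 10 of 12 fell in the adenine model, with Sucla2 the lowest (-1.52), and 9 of 11 in the UUO model. The transcript of citrate synthase, Cs, went the other way in the adenine model, from 59.7, 38.2 and 46.0 to 93.2, 70.9 and 63.8 FPKM (0.67, adjusted p = 0.0287). That rise was not called after median-of-ratios scaling (adjusted p = 0.168). In the UUO table Cs was 81.9, 86.2 and 75.9 in sham and 77.6, 75.1 and 75.6 in UUO rats (adjusted p = 0.314). Median-of-ratios scaling called it as fallen in UUO rats (-0.70, adjusted p = 0.00089). Genes named after the mitochondrial ribosome (Mrpl and Mrps, chosen by symbol alone) fell for 46 of 74 and rose for 3 in the adenine model. They fell for 38 of 75 and rose for 4 in the UUO model, while 61 and 69 fell after median-of-ratios scaling. Whether each is part of the ribosome was not checked. Mrpl36 (adenine, -1.60) and Mrps36 (UUO, -1.11) had the largest falls that passed the test. Mrpl36 was 20.5, 24.9 and 21.9 FPKM in sham and 12.9, 0.0001 and 12.1 in UUO rats and did not pass it there (adjusted p = 0.155). The largest rises, Mrpl39 in the adenine (0.50) and Mrpl14 in the UUO model (1.09), were not called after median-of-ratios scaling (adjusted p = 0.197 and 0.34). The medians of the list, -0.49 and -0.30, stand beside -1.06 and -0.93 for the members.

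Regulators of mitochondrial genes did not move in one direction, with 5 of 16 falling and 4 rising in adenine rats and 7 of 16 falling and 5 rising in UUO rats. After median-of-ratios scaling 7 fell and 1 rose in adenine rats, and 9 fell and 2 rose in UUO rats. The estrogen-related receptor genes fell in both. Esrra changed by -0.70 and -0.70, Esrrg, singled out after its values were seen, by -1.37 and -1.21, and Esrrb, at low FPKM, by -2.23 and -3.45. Ppargc1a, the coactivator PGC-1 alpha, was 4.81, 2.67 and 2.94 FPKM in control and 2.21, 3.32 and 3.14 in adenine rats (adjusted p = 0.497), and fell from 9.67, 6.45 and 8.91 in sham to 2.58, 2.81 and 4.10 in UUO rats (log2 fold change -1.38, adjusted p = 0.00181). Nrf1 rose by 0.61 and 1.10, the first of which was not called after median-of-ratios scaling (adjusted p = 0.0905). Pprc1, a coactivator related to PGC-1 alpha, rose by 1.18 and 1.94 under both scalings. Gabpa, the DNA-binding subunit of GABP, and Tfam, which packs and transcribes mitochondrial DNA, did not pass the test (0.21 and 0.37 for Gabpa, -0.22 and 0.31 for Tfam).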

How the data were processed

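Total RNA from 12 rat kidneys was poly(A)-selected, made into stranded libraries and sequenced as paired ends. The authors removed adaptors and low-quality bases, mapped the reads, merged the transcripts into one transcriptome and deposited FPKM values per gene in 2 tables, one for each model. The submitters' processing notes name cutadapt 1.9, HISAT2 2.0.4 and StringTie 1.3.4d, together with edgeR and DESeq2, and the genome build is not given in the sources used here. The tables hold no read counts, so depth is unknown and the count model named in the study's methods could not be run.

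Entries with an FPKM of at least 0.5 in 3 or more of 6 samples were tested on log2(FPKM + 0.1) with limma 3.58.1 (eBayes with trend, R 4.3.3), each table by itself, and p-values were adjusted by Benjamini-Hochberg over all entries tested. The 0.1 added understates the change of entries with low FPKM. Fell and rose mean an adjusted p under 0.05, and DEG adds a log2 fold change of 2 or more in either direction. Differences between the models were tested as the difference of the log2 fold changes over the root of their summed squared standard errors, adjusted over 13486 symbols. Other steps used Python 3.11.15, numpy 2.4.6, pandas 2.3.3 and scipy 1.17.1, and the fits were tested on simulated data.

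Members and lists were chosen with earlier results of these data known. Members named in the text are DEGs, those that rose, in each complex and model the 2 largest falls and the value nearest 0, the 2 most abundant in control, core and catalytic subunits, isoform pairs, members that differed between the models by at least 1, those near the FPKM minimum and those listed more than once, and in other lists the largest rise and fall. Complex names follow gene symbols. Entries of a repeated symbol were not matched between tables. Promoter motifs were matched as exact letters in RefSeq windows. Rats of the same number in different groups are different animals, so the reported fits hold no block. Other members named among those that differed between the models, and marker genes, were chosen after their values were seen. Some members and list genes that the naming rule covers are not reported here.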

Additional observations from a re-analysis of the deposited data

Results flagged for a closer look

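The difference between the models passed its test and reached at least 1 on the log2 scale for 4 members, each value being the UUO minus the adenine log2 fold change with 3 rats a group. Cox4i2, the subunit 4 isoform of complex IV known from lung, differed by 1.62 (SE 0.46, adjusted p = 0.0199), with every UUO rat above every sham rat and the adenine and control rats overlapping. Cox6b2, a complex IV isoform best known from testis, rose in both models and differed by 1.49 (SE 0.51, adjusted p = 0.0463). The complex I assembly factors Ndufaf8 and Ndufaf4 had the lower log2 fold change in the adenine model, by 1.09 (SE 0.20, adjusted p = 0.00211) and 1.05 (SE 0.25, adjusted p = 0.00823). All 4 have a mean FPKM under 50 in every group. After median-of-ratios scaling the difference remained past the test for Ndufaf8 and Ndufaf4 and not for Cox6b2 or Cox4i2 (adjusted p = 0.139 and 0.0667).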

How the results depend on the processing

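Counts of members that fell and rose stayed within 1.5 times the reported counts under every alternative run, with 73 to 82 falls among adenine and 75 to 85 among UUO rats outside the fits that left out 1 rat. The number that differed between the models ranged from 15 to 25. Counts of DEGs moved: in adenine rats to 2 with FPKM rescaled to the same sum, 9 with median-of-ratios scaling and 3 with 1 added in place of 0.1, and in UUO rats to 9 with scaling by median ratios, 1 with 1 added and 1 without the entries that passed the minimum in a single group and Ndufa1. Shares over all entries are not given for the counts under alternatives in this section. The exceptions are falls, rises and differences between the models under median-of-ratios scaling, given above. Depth is unknown, so counting error could not be separated from the spread between rats.

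Scaling shifted the median log2 fold changes of all members and of complexes I, II, III, IV and V, and the cause was not tested. With FPKM rescaled to the same sum they were -0.79, -0.88, -0.66, -0.90, -0.83 and -0.72 in adenine rats and -0.71, -0.72, -1.12, -0.81, -0.55 and -0.86 in UUO rats. With median-of-ratios scaling they were -1.36, -1.445, -1.22, -1.46, -1.39 and -1.29 in the adenine and -1.535, -1.55, -1.95, -1.64, -1.38 and -1.68 in the UUO model. Quantile normalisation gave -0.96 for all members, -0.77 for complex II and -1.02 for complex III in adenine rats, and -1.22 for complex III in UUO rats. With symbols listed once alone, complex IV had -1.29 in adenine rats and -0.89 in UUO rats, and complex III had -1.11 in UUO rats. Leaving out 1 rat in turn gave -1.01 to -0.86 for complex II in adenine rats, and -1.07 to -0.92 for complex I and -1.13 to -0.98 for complex III in UUO rats.

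Of 48 named members in the adenine model, 778 of 808 values kept their direction and side of the threshold, 18 lost the call, 5 gained it and 7 changed sign. Of 47 in the UUO model, 773 of 792 did, with 4 lost, 9 gained and 6 changed in sign. None of the values that changed sign passed the test. Rescaling to the same sum gave 0.03 for Cox4i1 and 0.028 for the second entry of Cox6b1 (adenine) and 0.10 for Ndufaf4 (UUO). Median-of-ratios scaling gave -0.17 for the first entry of Cox6b1 (adenine) and -0.28 for Ndufaf7 (UUO), which was -0.35 after quantile normalisation. Leaving out 1 rat in turn gave -0.69 to 0.009 for Cox4i2 (above 0 without control 2), -0.77 to 0.074 for Ndufa4l2 (above 0 without adenine 2) and -1.42 to 0.88 for the minor entry of Ndufa10l1 (above 0 without adenine 1, 0.45, or control 2) in the adenine model. In the UUO model it gave -3.528 to 3.03 for Ndufa1, which was above 0 without UUO 1, sham 1 (1.22) or sham 3 (1.71).

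Samples with the same number correlated in their deviations at -0.077, -0.123 and -0.049 in the adenine table and at 0.050, 0.105 and 0.059 in the UUO table, so the numbers were not taken to pair the rats, although in the UUO table each sample correlated best with its own number. With the replicate number as a block, 78 entries fell, 4 rose and 6 were DEGs in the adenine model, 81 fell, 5 rose and 3 were DEGs in the UUO model, and 21 members differed between the models. The fits without the entries that passed the minimum in a single group and without Ndufa1, those with Welch-Satterthwaite degrees of freedom and those with the median of all symbols subtracted were chosen after seeing the data.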
